A study of Mus musculus with 56 samples.

Results

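The genes described here encode the nuclear subunits of respiratory complexes II to V, the part of the oxidative phosphorylation machinery that lies downstream of complex I. They were chosen by symbol alone, as the protein-coding genes of the GENCODE vM21 mouse annotation named Sdha to Sdhd (complex II), Cyc1 or Uqcr (complex III), Cox4 to Cox8 (complex IV) and Atp5 (complex V). The rule gave 49 genes, and 48 of them had a row in the count tables of 45513 gene IDs: 4 of complex II, 9 of complex III, 18 of complex IV and 17 of complex V. The other one, a second Ensembl entry for Atp5o, was not analysed here. Of the 48, 43 had enough reads to be tested, among 14314 genes tested in all.

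Complex II (succinate dehydrogenase) passes electrons from succinate to ubiquinone and is also an enzyme of the citric acid cycle. Complex III (the cytochrome bc1 complex) passes them on to cytochrome c, complex IV (cytochrome c oxidase) hands them to oxygen, and complex V (ATP synthase) uses the proton gradient built on the way to make ATP. Complexes III to V also hold subunits encoded by mitochondrial DNA, so their assembly draws on both genomes, and hepatocytes are rich in all of them. Complex II is encoded by nuclear genes alone.

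Liver RNA was sequenced from 56 female APOE*3Leiden.CETP transgenic mice, a line with a humanised lipoprotein metabolism, 8 in each of 7 groups. All mice, the controls included, ate a Western-type diet with 15% cacao butter and 0.15% cholesterol and were 9 to 14 weeks old at the start. The controls received the vehicle, 5% carboxymethyl cellulose, and 5 groups received a BCR-ABL1 tyrosine kinase inhibitor by gavage for 16 weeks: imatinib at 150 mg/kg in each of 2 daily doses, nilotinib at 10 or 30 mg/kg once daily, or ponatinib at 3 or 10 mg/kg once daily. The seventh group drank L-NAME, an inhibitor of nitric oxide synthases, at 0.12 to 0.20% in water and was gavaged with vehicle; how long it was treated is not given in the sources used here.

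Each library was a poly(A) RNA library of a whole liver sample, and the libraries held 5342379 to 17996732 reads on genes, except for L-NAME mouse 2 with 97473341. Levels are given below as CPM, read counts scaled to a common library size with TMM factors. Fold changes are on the log2 scale with their standard error, from edgeR's quasi-likelihood test over the 56 mice, and a gene was called at an unadjusted p under 0.01, the study's own cut-off, with the Benjamini-Hochberg adjusted p beside it. A summed level of 11 hepatocyte markers lay between 72608 and 157314 CPM in every mouse, and 12 skeletal muscle markers together never passed 5.41 CPM. In whole liver, fewer cells of a type and less RNA per cell cannot be told apart.

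In control livers the catalytic subunits of ATP synthase stood highest per kilobase of merged exons. Atp5a1 and Atp5b, which form the head of ATP synthase where ATP is made, reached a mean of 365 and 310 CPM per kilobase of exon. The membrane and accessory subunits Cox4i1 (236 CPM per kilobase), Cox6a1 (202) and Sdhd (186) came next, then Atp5g3 (162), Cox8a (154) and Sdha (148). These neighbours in the order were not tested against each other, and short exons and reads that map to several places both bear on a level per kilobase. The order also depends on the length used. All annotated exons of a gene merged gave 3135 bases for Atp5a1 and 1550 for Cox4i1. The mRNA lengths used further on are 2471 and 755 bases. At the other end, Atp5g2 (0.246 CPM per kilobase), Cox6b2 (0.227) and Atp5l (0.162) were close to 0.

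Several of these genes have near-identical pseudogene copies, and only reads with 1 place in the genome were counted. All of the 50-base windows of the Atp5g2 mRNA, 84.8% of those of Atp5l, 66.6% of those of Atp5h, 66.0% of those of Atp5g1 and 53.0% of those of Cox7c also occur in another annotated gene. For these genes the level is therefore uncertain and may be far too low, while the same windows were missing in every group. Smaller shares stood in Atp5o (50.3%), Uqcrb (43.4%), Atp5f1 (38.7%), Cox5a (32.0%), Cox5b (25.9%), Uqcrc2 (24.8%) and Cox6c (21.1%), where the level is uncertain too. Sdha, Cox6a1 and Uqcr11 each shared fewer than 20% of their windows.

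The isoform make-up was that of a liver. Cox4i2, Cox6a2, Cox8b, Cox7b2 and Cox8c, isoforms known from lung, muscle or testis, did not pass the filter on low counts. Cox4i2 had 71 reads over all 56 mice and none in 42 of them, Cox6a2 had 57 reads and none in 46 mice, and Cox8b had 23 reads and none in 53 mice. Cox7b2 and Cox8c had no read in any mouse. Among the genes of subunit c, the proton-carrying ring of ATP synthase, Atp5g3 made up 97.2% ± 0.47 (SD, n = 8) of the summed level per kilobase in control livers and Atp5g1 2.69% ± 0.44. As a share of counts, not divided by exon length, Atp5g1 made up 5.85% ± 0.92. The merged exons of Atp5g1 span 4912 bases, though its principal transcripts run down to 596. Atp5g1 and Atp5g2 share 66.0% and 100% of their 50-base windows with other genes, and Atp5g3 shares 0%. The shares of Atp5g1 and Atp5g2 may therefore be too low. In no group did the Atp5g1 share differ from control beyond the spread once 6 comparisons were allowed for: the smallest exact two-sided permutation p was 0.0398, for nilotinib 10 mg/kg at 2.29% ± 0.26, with an adjusted p of 0.159.

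Cox7a1, the heart and muscle form of a small complex IV subunit, made up 1.90% ± 1.13 (SD, n = 8) of the Cox7a level in control livers, against 98.1% for Cox7a2. Its level in control mice ran from 0.088 to 1.51 CPM with a median of 0.955. With ponatinib 10 mg/kg it ran from 0 to 8.98 CPM with a median of 3.90, and 5 of the 8 mice lay above every control mouse. The groups overlapped, and the log2 fold change of 2.07 ± 0.92 (SE) was not called (p = 0.029, adjusted p = 0.137 in edgeR; exact permutation p = 0.090). The skeletal muscle markers were near 0 in the same livers, with a summed level of at most 3.13 CPM.

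The upstream sequences of 4 members are shown because Cox6a1, Uqcr11 and Atp5e gave the smallest p-values of complexes IV, III and V with imatinib and ponatinib 10 mg/kg, and Sdha was called lower in more comparisons than any other member. They are the 250 bases before the RefSeq transcript start, read 5′ to 3′ on the gene's strand of GRCm38.p6, with matches to published motif letters of 2 factors known to act on respiratory genes in capitals. Cox6a1 lies at chr5:115348959-115349208 (minus strand) and holds 2 NRF1 matches (its palindromic consensus with 1 free base, searched on both strands and shown by the capitals) and 1 GABPA match (CCGGAAG, or CTTCCGG on the other strand). Uqcr11, at chr10:80406822-80407071 (minus strand), and Atp5e, at chr2:174464102-174464351 (minus strand), hold 1 GABPA match each. Sdha, at chr13:74350241-74350490 (minus strand), holds 3 NRF1 matches.
Cox6a1: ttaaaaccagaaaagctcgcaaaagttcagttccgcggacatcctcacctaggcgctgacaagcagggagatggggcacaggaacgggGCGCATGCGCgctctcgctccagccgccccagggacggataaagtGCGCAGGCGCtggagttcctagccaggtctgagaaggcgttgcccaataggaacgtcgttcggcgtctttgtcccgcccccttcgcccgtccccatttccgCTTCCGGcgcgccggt
Uqcr11: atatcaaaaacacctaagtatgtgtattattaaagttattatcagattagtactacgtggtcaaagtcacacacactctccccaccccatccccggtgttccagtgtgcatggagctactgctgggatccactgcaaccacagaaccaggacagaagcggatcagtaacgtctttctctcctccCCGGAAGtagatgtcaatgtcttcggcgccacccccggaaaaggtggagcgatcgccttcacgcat
Atp5e: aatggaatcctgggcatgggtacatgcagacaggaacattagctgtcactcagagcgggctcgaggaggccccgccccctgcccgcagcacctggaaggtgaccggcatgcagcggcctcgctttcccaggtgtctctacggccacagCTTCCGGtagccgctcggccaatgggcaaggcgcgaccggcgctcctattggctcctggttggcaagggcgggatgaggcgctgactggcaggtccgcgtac
Sdha: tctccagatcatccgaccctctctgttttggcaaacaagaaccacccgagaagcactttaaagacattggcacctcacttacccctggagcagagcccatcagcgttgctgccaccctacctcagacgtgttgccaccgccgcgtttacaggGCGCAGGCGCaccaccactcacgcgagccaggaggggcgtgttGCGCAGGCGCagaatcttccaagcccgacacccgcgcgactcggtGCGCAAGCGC
Of the 34 members with a RefSeq promoter (250 bases before to 50 after the start), 10 held the NRF1 letters (29.4%, against 7.50% of 16328 coding genes with a promoter) and 12 held the GABPA letters (35.3%, against 13.4%). The ERR letters TCAAGGTCA stood in 2 members (Atp5g3 and Sdhd) and the YY1 consensus in 1 (Atp5j). A match describes the letters and does not show that the factor binds. Of the 2 members called lower, Sdha held NRF1 matches and Atp5b held none of the 4 motifs.

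The question put to each treated group was whether it differed from the control livers, and the 6 comparisons share the same 8 control mice. The members of complexes III, IV and V were mostly higher in the treated groups, and those of complex II were not called higher as tested. With imatinib 27 of the 43 members were higher and none lower, while 6.85% of all tested genes were higher and 6.06% lower. With nilotinib 10 mg/kg 15 were higher and 1 lower (2.32% of all genes higher, 3.65% lower), and with nilotinib 30 mg/kg 20 were higher and 1 lower (4.11% and 5.24%).

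Ponatinib 3 mg/kg gave 6 higher members and none lower (1.4% of all genes higher, 1.74% lower), and ponatinib 10 mg/kg gave 27 higher and 2 lower (8.19% higher, 6.85% lower). With L-NAME 26 were higher and 2 lower (6.66% higher, 7.29% lower). Under the stricter rule of an adjusted p under 0.05, the members higher were 26, 1, 16, 0, 26 and 25 in the order imatinib, nilotinib 10 and 30, ponatinib 3 and 10, and L-NAME, against 5.69%, 0.468%, 2.34%, 0%, 7.24% and 5.55% of all genes. For ponatinib 3 mg/kg, 17 members had an unadjusted p under 0.05, and its count depends on the tool. There limma voom called 22 at p under 0.01, while it called 9.08% of all genes in either direction (3.14% in edgeR). The median log2 fold change of the members in that order was 0.58, 0.31, 0.38, 0.27, 0.69 and 0.50, where that of all tested genes lay between -0.02 and 0.03.

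These counts rest on how the abundance of short mRNAs is treated. With the share of reads on other short coding genes (mRNA under 1000 bases) as a covariate, none of the 43 members was called in any of the 6 comparisons with control, and edgeR gave 1, 0, 0, 4, 5 and 3 members with an unadjusted p under 0.05. That share includes the reads on short genes of complex I and of ribosomal proteins. It also differed between the groups, so the share and the treatment cannot be told apart in such a fit. The values are given with the mRNA lengths further on.

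**Figure D1:**
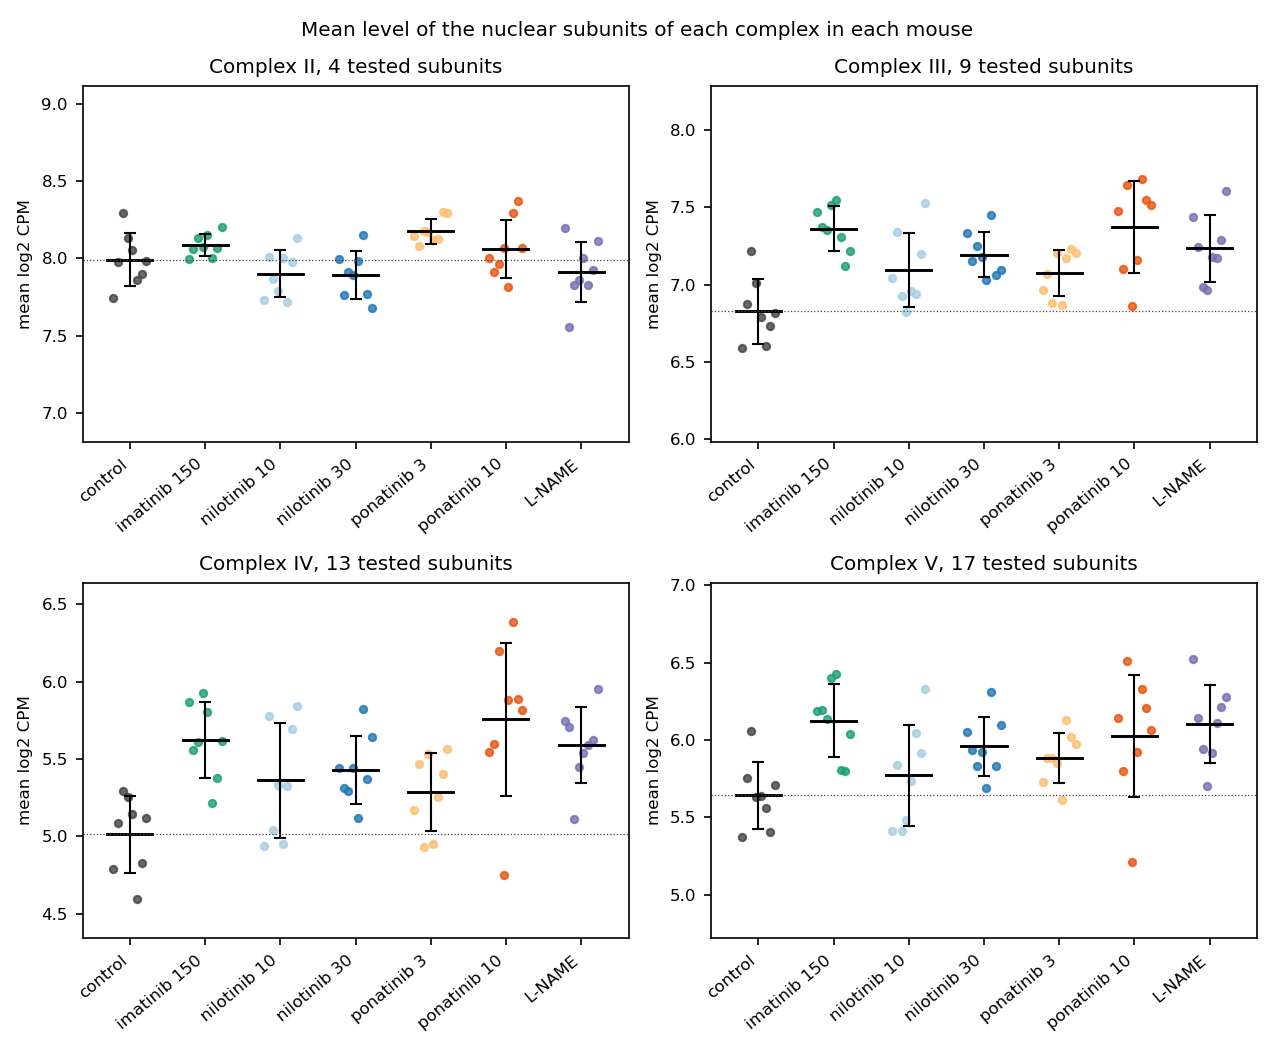
Mean log2 CPM over the tested members of each complex, 1 point per mouse with the group mean (vertical axis: mean log2 CPM; horizontal axis: the 7 groups of 8 mice). Bars are the SD and the dotted line is the control mean. The treated means of complexes III and IV lie above the control mean, though single mice overlap, while complex II stays between 7.56 and 8.37 in every mouse.

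Complex II differed from the others in its counts, and its 4 mRNAs are all long, from 1142 (Sdhb) to 3171 bases (Sdhc). The trait is not particular to it: the long mRNAs of Cyc1, Uqcrc2 and Atp5a1 in other complexes were not called higher either. Uqcrfs1 (1363 bases) and Cox7b (1001 bases) were. mRNA length is taken up further on. The largest subunit of complex II fell in 4 of the 6 comparisons. None of its 4 members was called higher as tested, though Sdhc was with imatinib and ponatinib 10 mg/kg in 2 other fits. Sdha, the flavoprotein that oxidises succinate, ran from 541 to 674 CPM with a median of 619 in control livers. It ran from 420 to 488 CPM (median 462) with nilotinib 10 mg/kg and from 305 to 479 CPM (median 404) with L-NAME, and in both groups every mouse lay below every control mouse. With nilotinib 30 mg/kg it ran from 365 to 547 CPM (median 416), with ponatinib 10 mg/kg from 372 to 687 CPM (median 427), with imatinib from 383 to 681 CPM (median 475) and with ponatinib 3 mg/kg from 561 to 696 CPM (median 626). The nilotinib 30 mg/kg group overlapped the controls by its highest mouse, and mouse 4 of the ponatinib 10 mg/kg group lay above every control mouse.

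The Sdha fold change was -0.59 ± 0.11 (SE) with L-NAME (adjusted p = 0.000192), -0.51 ± 0.11 with nilotinib 30 mg/kg (0.00280), -0.41 ± 0.11 with nilotinib 10 mg/kg (0.0378). With ponatinib 10 mg/kg it was -0.40 ± 0.11 (adjusted p = 0.00982). The exact permutation p was 0.000155 for L-NAME and for nilotinib 10 mg/kg, which is the smallest that 8 mice against 8 can give. With imatinib the difference of -0.28 ± 0.11 was not called (exact permutation p = 0.0182, adjusted p = 0.0840 in edgeR), and ponatinib 3 mg/kg gave 0.03 ± 0.11. With the length-trend offset described further on, Sdha was still called lower in the same 4 comparisons, by -0.55, -0.47, -0.34 and -0.30. With the short-gene share as a covariate it was -0.25, -0.22, -0.20 and -0.03 and no longer called.

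The other subunits of complex II differed little from control. The iron-sulfur subunit Sdhb had fold changes of 0.07 to 0.30, and the membrane anchors Sdhc and Sdhd, which hold the ubiquinone site, ranged from -0.02 to 0.22 and from -0.06 to 0.23. None was called, although Sdhb with imatinib (0.28 ± 0.12, adjusted p = 0.149) and ponatinib 10 mg/kg (0.30 ± 0.12, adjusted p = 0.105) came nearest. Sdhc was called higher with imatinib and ponatinib 10 mg/kg by limma voom (0.29 and 0.27) and with the length-trend offset (0.33 ± 0.11 and 0.31 ± 0.11). A median half-width of the 95% intervals of about 0.28 over the 43 members bounds what these comparisons could show.

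Complex III rose chiefly in its small subunits. Of its 9 members 7 were higher with imatinib, 5 with nilotinib 10 mg/kg, 5 with nilotinib 30 mg/kg, 1 with ponatinib 3 mg/kg, 6 with ponatinib 10 mg/kg and 6 with L-NAME, and none was lower. Uqcr11, a small membrane subunit at the edge of the complex, ran from 40.0 to 80.1 CPM (median 42.0) in control livers. It ran from 54.4 to 145 CPM (median 114) with ponatinib 10 mg/kg, where 7 of 8 mice lay above every control mouse, and from 63.0 to 125 CPM (median 87.9) with imatinib. Its fold change was 1.13 ± 0.17 with ponatinib 10 mg/kg (adjusted p = 3.0e-05), 0.91 ± 0.17 with imatinib (0.000266), 0.83 ± 0.17 with L-NAME (0.000679), 0.71 ± 0.17 with nilotinib 30 mg/kg (0.00655) and 0.48 ± 0.17 with nilotinib 10 mg/kg (0.130).

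Uqcrh, the hinge subunit beside cytochrome c1, rose by 0.67 ± 0.14 with imatinib and 0.85 ± 0.14 with ponatinib 10 mg/kg. Uqcr10 (0.77 with imatinib, 0.85 with ponatinib 10 mg/kg), Uqcrq (0.75 and 0.79) and Uqcrb (0.74 and 0.70), further small subunits, were of the same size. The Rieske iron-sulfur protein Uqcrfs1, which takes the first electron from ubiquinol, rose less, by 0.37 ± 0.10 with imatinib, 0.43 ± 0.10 with ponatinib 10 mg/kg and 0.30 ± 0.10 with L-NAME. Cytochrome c1 itself (Cyc1) was not called in any comparison with control, with 0.29 ± 0.11 for imatinib (adjusted p = 0.0831) as its highest value.

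The large core subunits of complex III behaved otherwise. Uqcrc1 was called with imatinib alone among the 6 comparisons (0.30 ± 0.10, adjusted p = 0.0389), and the difference between that value and the other groups' values was not tested as such. Uqcrc2 was called in none, with fold changes from -0.23 ± 0.10 (L-NAME, adjusted p = 0.158) to 0.07.

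Complex IV rose about as widely as complex III. Of its 13 tested members 10 were higher with imatinib, 7 with nilotinib 10 mg/kg, 8 with nilotinib 30 mg/kg, 3 with ponatinib 3 mg/kg, 11 with ponatinib 10 mg/kg and 10 with L-NAME, and none was lower. Cox6a1, the ubiquitous form of a regulatory subunit, ran from 125 to 165 CPM (median 137) in control livers. With imatinib it ran from 176 to 292 CPM (median 242), with nilotinib 30 mg/kg from 171 to 228 CPM (median 201) and with L-NAME from 168 to 280 CPM (median 214). In these 3 groups every mouse lay above every control mouse, each with an exact permutation p of 0.000155.

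With ponatinib 10 mg/kg Cox6a1 ran from 155 to 310 CPM (median 243), and 7 of 8 mice lay above the control range. The fold change was 0.77 ± 0.12 with imatinib (adjusted p = 1.5e-05), 0.75 ± 0.12 with ponatinib 10 mg/kg (4.5e-05), 0.63 ± 0.12 with L-NAME (0.000309), 0.52 ± 0.12 with nilotinib 30 mg/kg (0.00502) and 0.42 ± 0.12 with nilotinib 10 mg/kg (0.050). With ponatinib 3 mg/kg it was 0.30 ± 0.12 and not called (adjusted p = 0.345).

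Cox4i1, the regulatory subunit that binds adenine nucleotides, was called higher in all 6 comparisons. It ran from 323 to 443 CPM (median 347) in control livers, from 409 to 725 CPM (median 617) with imatinib and from 357 to 696 CPM (median 637) with ponatinib 10 mg/kg, so both groups overlapped the controls. Its fold changes were 0.69 ± 0.12 and 0.70 ± 0.12 in those groups, and 0.32 ± 0.12 with ponatinib 3 mg/kg, called at the unadjusted cut-off only (adjusted p = 0.30). Cox6b1 and Cox7b, both small subunits, were also called in each of the 6 comparisons.

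Cox5b, which binds zinc on the matrix side, rose by 1.01 ± 0.17 with ponatinib 10 mg/kg and 0.83 ± 0.17 with imatinib, and its partner Cox5a by 0.46 ± 0.12 and 0.44 ± 0.12. Cox8a, the ubiquitous form of the smallest subunit, rose by 0.51 ± 0.15 with ponatinib 10 mg/kg and 0.60 ± 0.15 with imatinib. Cox7a2l, which links complexes III and IV in supercomplexes, was called with ponatinib 10 mg/kg only among the 6 (0.32 ± 0.12, adjusted p = 0.0550). The testis form Cox6b2 had 21 to 107 reads per group and standard errors of 1.17 to 1.19, so a change in it was not detectable at this depth.

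**Figure D2:**
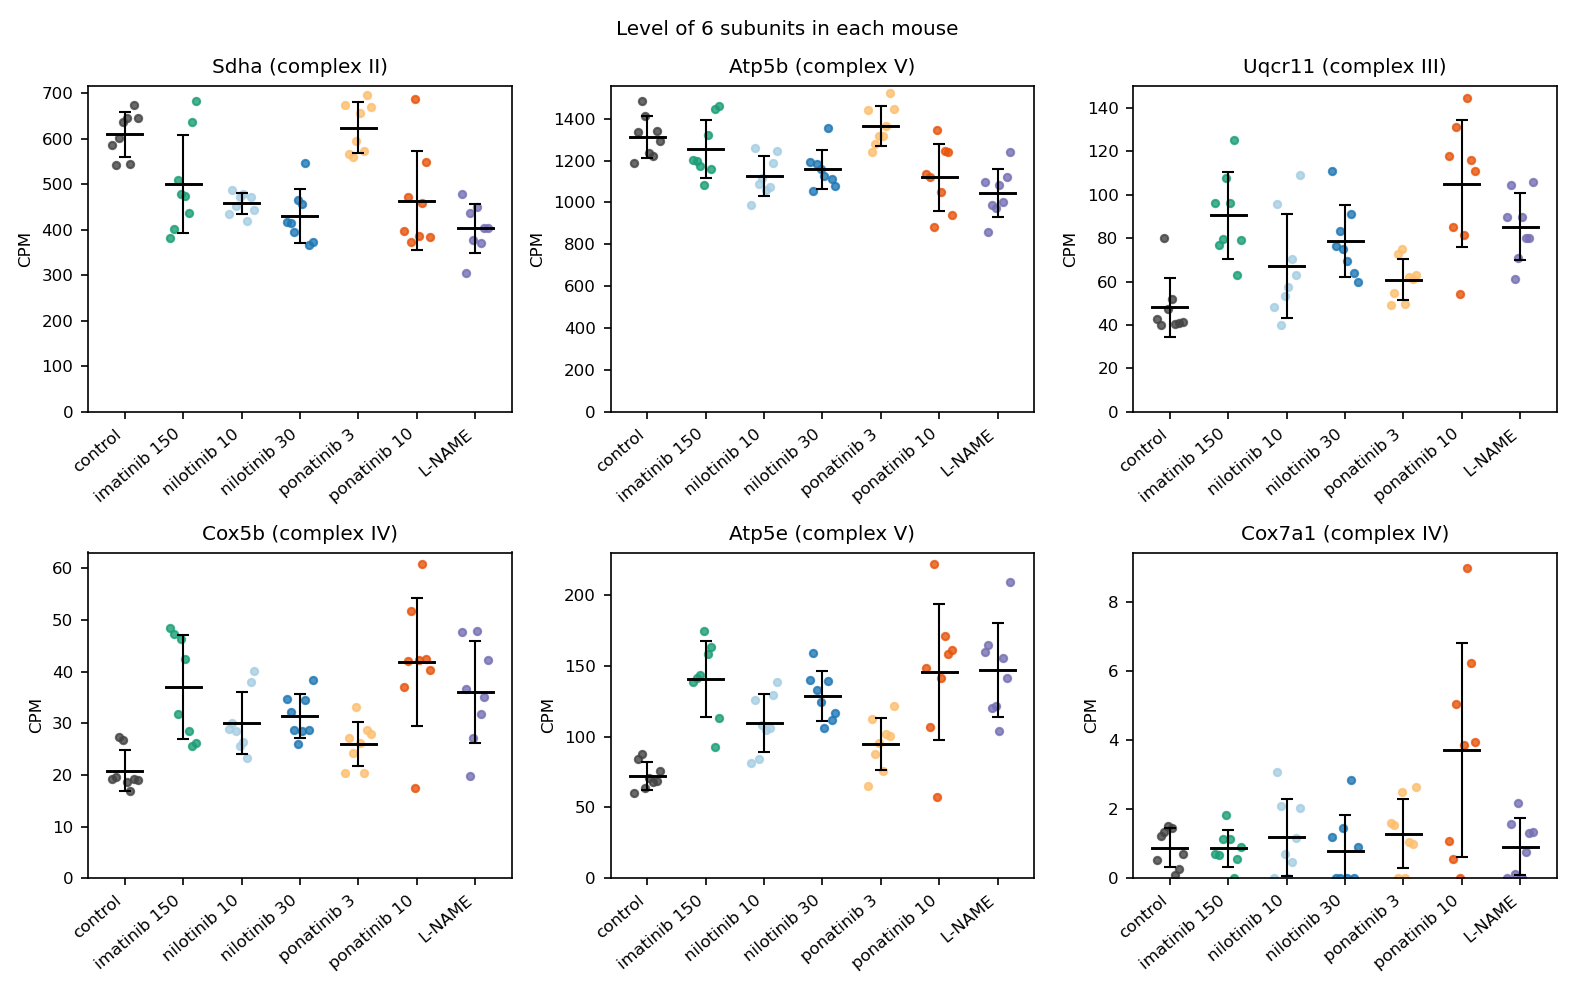
Levels of Sdha, Atp5b, Uqcr11, Cox5b, Atp5e and Cox7a1 in each of the 56 mice, by group, with the group mean and SD (vertical axes: CPM). Sdha lies below the control range in every mouse given nilotinib 10 mg/kg or L-NAME, and Atp5e lies above it in every mouse given imatinib, nilotinib 30 mg/kg or L-NAME.

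In complex V several small subunits rose and the catalytic ones did not. Of 17 members 10 were higher with imatinib, 3 with nilotinib 10 mg/kg, 7 with nilotinib 30 mg/kg, 2 with ponatinib 3 mg/kg, 10 with ponatinib 10 mg/kg and 10 with L-NAME. Among the higher ones were the central stalk subunits Atp5e and Atp5d, the ring subunits Atp5g3 and Atp5g1, and the peripheral stalk subunits Atp5h and Atp5o. Atp5e, the epsilon subunit, ran from 60.0 to 88.1 CPM (median 69.8) in control livers, from 92.8 to 174 CPM (median 142) with imatinib and from 104 to 209 CPM (median 149) with L-NAME. Neither group overlapped the controls, and the same held for nilotinib 30 mg/kg (106 to 159 CPM, median 129).

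With ponatinib 10 mg/kg Atp5e ran from 57.2 to 222 CPM (median 153), with 7 of 8 mice above the control range and mouse 4 below it. Its fold change was 1.02 ± 0.16 with L-NAME (adjusted p = 2.2e-05), 1.01 ± 0.16 with ponatinib 10 mg/kg (3.8e-05), 0.96 ± 0.16 with imatinib (3.2e-05), 0.83 ± 0.16 with nilotinib 30 mg/kg (0.000719). The lower nilotinib dose gave 0.60 ± 0.16 (adjusted p = 0.0327). Atp5j2, a membrane subunit, rose by 0.92 ± 0.15 with ponatinib 10 mg/kg and 0.90 ± 0.15 with imatinib.

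The catalytic subunits did not rise. Atp5b, the beta subunit that carries the catalytic sites, ran from 1190 to 1484 CPM (median 1315) in control livers, from 859 to 1239 CPM (median 1041) with L-NAME and from 880 to 1348 CPM (median 1129) with ponatinib 10 mg/kg. Both groups overlapped the controls. The fold change was -0.33 ± 0.08 with L-NAME (adjusted p = 0.00564) and -0.23 ± 0.08 with ponatinib 10 mg/kg (adjusted p = 0.0596). Atp5a1, the alpha subunit, had fold changes from -0.25 ± 0.09 to 0.12 and was not called in any of the 6 (adjusted p = 0.0744 for L-NAME).

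The gamma subunit Atp5c1, the rotor shaft, was called with imatinib (0.26 ± 0.10, adjusted p = 0.0733) and not in the other 5 comparisons. Atp5s, known as coupling factor B, had fold changes of -0.19 to 0.35 with a standard error of 0.35. Atp5g2 and Atp5l had standard errors above 1.00, and Atp5k of 0.45.

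**Figure D3:**
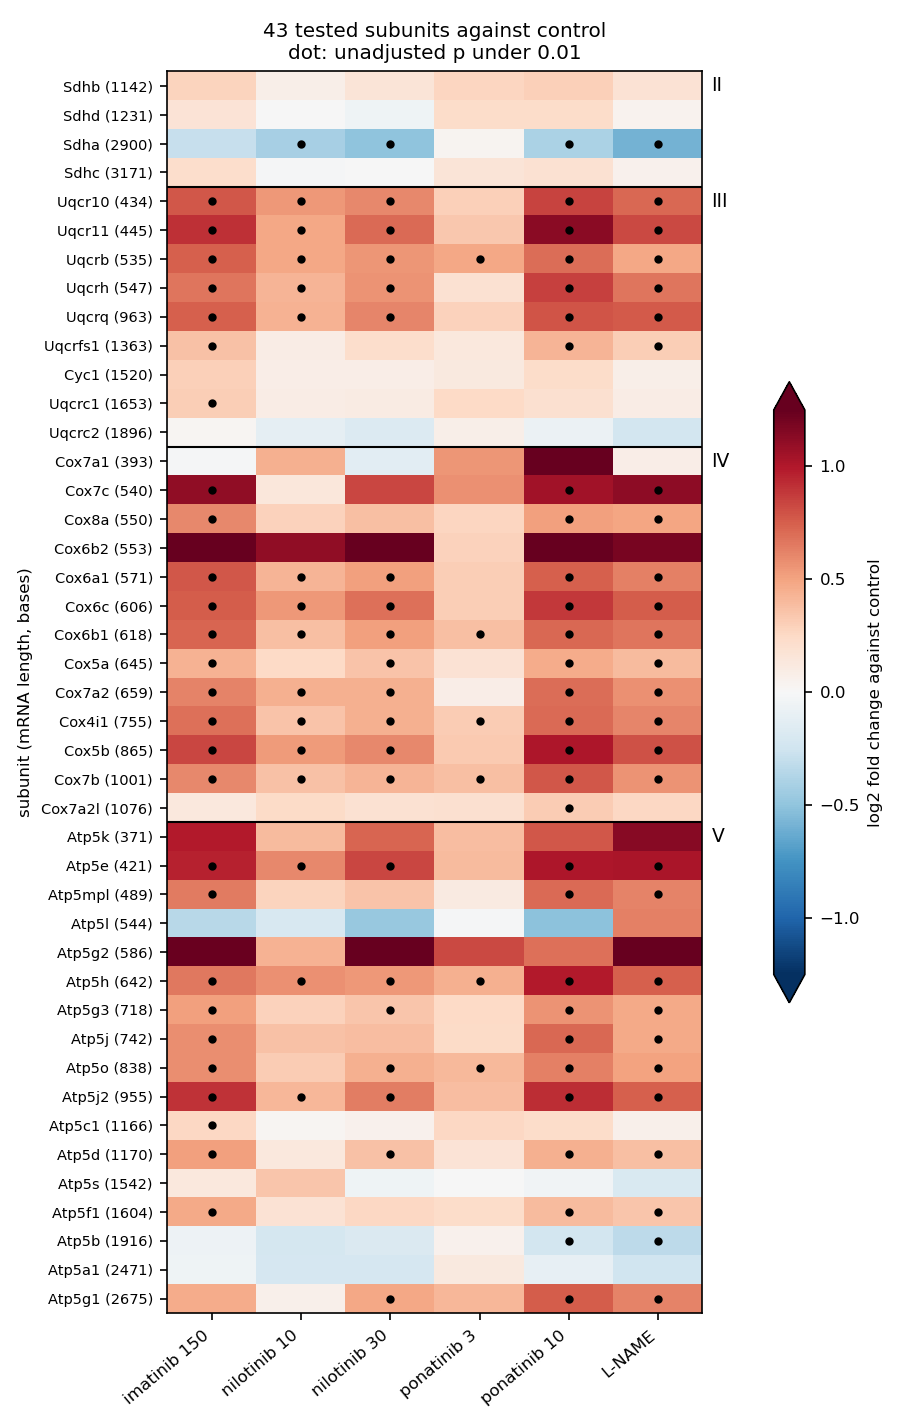
Log2 fold change against control (colour) of each of the 43 tested members (vertical axis, by complex and mRNA length in bases) in the 6 comparisons (horizontal axis). Colours saturate at the ends of the scale, and a black dot marks an unadjusted p under 0.01 (edgeR). Most dots of complexes III, IV and V stand on positive values, and Sdha and Atp5b carry dots on negative ones.

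The members that were not higher mostly had long mRNAs, where length is the median over the principal transcripts of a gene in GENCODE vM21. Over the 43 members the rank correlation of mRNA length with log2 fold change was -0.64 for imatinib, -0.70 for nilotinib 10 mg/kg, -0.61 for nilotinib 30 mg/kg, -0.49 for ponatinib 3 mg/kg, -0.68 for ponatinib 10 mg/kg and -0.70 for L-NAME. The points share libraries, and over the 12652 other coding genes tested the same measure was between -0.23 and -0.38. Of the 19 members with mRNAs under 700 bases, 14 were higher in each of the imatinib, ponatinib 10 mg/kg and L-NAME groups, and so were all 7 members of 700 to under 1000 bases. Of the 4 members with 2000 bases or more, 0, 1 and 1 were higher. That one was Atp5g1, at 0.76 with ponatinib 10 mg/kg, whose principal transcripts have a median of 2675 bases and run down to 596.

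Other short coding genes moved as well. The genes counted here include the short ones among the complex I and ribosomal protein genes listed further on. Of 746 tested coding genes outside the members with mRNAs under 1000 bases, 222 were higher with imatinib, 78 with nilotinib 10 mg/kg, 160 with nilotinib 30 mg/kg, 32 with ponatinib 3 mg/kg, 245 with ponatinib 10 mg/kg and 219 with L-NAME. Their median fold changes in that order were 0.43, 0.28, 0.40, 0.19, 0.48 and 0.48. The 19 members under 700 bases had medians of 0.74, 0.44, 0.55, 0.31, 0.77 and 0.67, beside 0.50, 0.29, 0.46, 0.22, 0.56 and 0.60 for the 236 other coding genes of that length. For members of 1000 to under 2000 bases the medians were 0.28, 0.09, 0.11, 0.20, 0.23 and 0.10, beside 0.17, 0.12, 0.18, 0.08, 0.17 and 0.20.

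**Figure D4:**
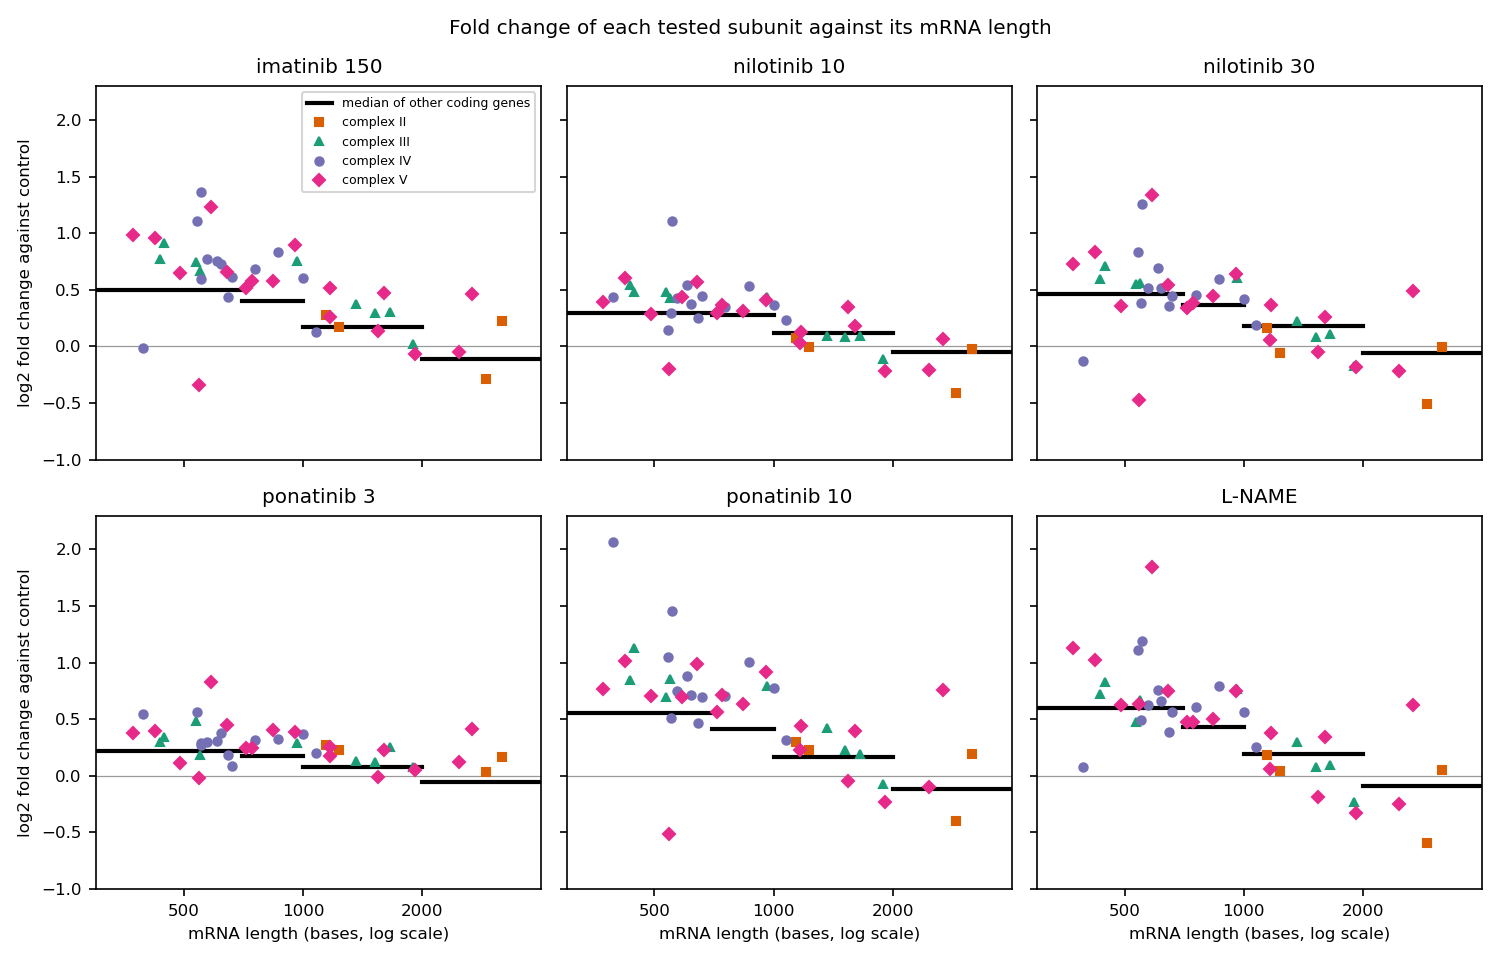
Log2 fold change against control plotted over mRNA length in bases (log axis) for the 43 members, with a symbol for each complex. Horizontal black lines are the medians of the other coding genes in 4 length classes, complex I and ribosomal protein genes included. Most short members lie above 0 and the longest ones at or below it, and the medians of the other genes fall with length too.

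The libraries differed between the groups in the same direction. Reads on the other short coding genes made up 4.30% ± 0.27 (SD, n = 8) of the reads on genes in control livers, 6.05% ± 0.84 with imatinib, 5.46% ± 0.52 with nilotinib 10 mg/kg, 5.86% ± 0.38 with nilotinib 30 mg/kg, 4.86% ± 0.33 with ponatinib 3 mg/kg, 6.37% ± 1.13 with ponatinib 10 mg/kg and 6.20% ± 0.59 with L-NAME. Each group was above control, with exact permutation p-values between 0.000155 and 0.00342. Reads outside annotated genes rose as well, from 7.97% ± 0.42 in control livers to 11.0% ± 2.0 with ponatinib 10 mg/kg and 11.0% ± 2.4 with L-NAME. Within groups (56 mice, group means subtracted, described without a test), the mean level of the members went with the short-gene share at r = 0.64 over all members (rho = 0.64, and r = 0.65 without the 2 mice farthest in that share), 0.61 for complex III, 0.60 for complex IV and 0.64 for complex V, and at 0.01 for complex II.

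A further 3 fits bear on this, of which those by mRNA length and by the short-gene share were chosen after the data were seen. With an offset that removes each mouse's own trend of level with mRNA length, 21, 11, 9, 3, 21 and 14 members were called higher in the order imatinib, nilotinib 10 and 30, ponatinib 3 and 10, and L-NAME, against 5.95%, 2.45%, 2.52%, 1.38%, 7.27% and 4.25% of all genes. Of these, 19, 11, 9, 2, 20 and 14 were also called without the offset. Those called with it alone were Sdhc and Atp5g1 with imatinib, Atp5e with ponatinib 3 mg/kg and Sdhc with ponatinib 10 mg/kg. Uqcr11 was then higher by 0.81 and Atp5g1 by 0.82 with ponatinib 10 mg/kg, and Atp5e by 0.66 with imatinib, with ponatinib 10 mg/kg and with L-NAME. With the share of reads outside genes as a covariate, the counts were 24, 1, 7, 2, 20 and 12.

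With the short-gene share as a covariate the counts were 0 in all 6, and the members' medians were 0.12, -0.02, 0.00, 0.14, 0.11 and 0.01. Of all genes, 3.71%, 2.05%, 3.43%, 2.01%, 3.9% and 2.01% were still called there in either direction. Uqcr11 stood at 0.43 ± 0.19 with ponatinib 10 mg/kg and Cox6a1 at 0.29 ± 0.12 with imatinib in this fit, both short of the cut-off. What part the length-linked difference between the libraries has in the members' rise was not tested beyond these fits.

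**Figure D5:**
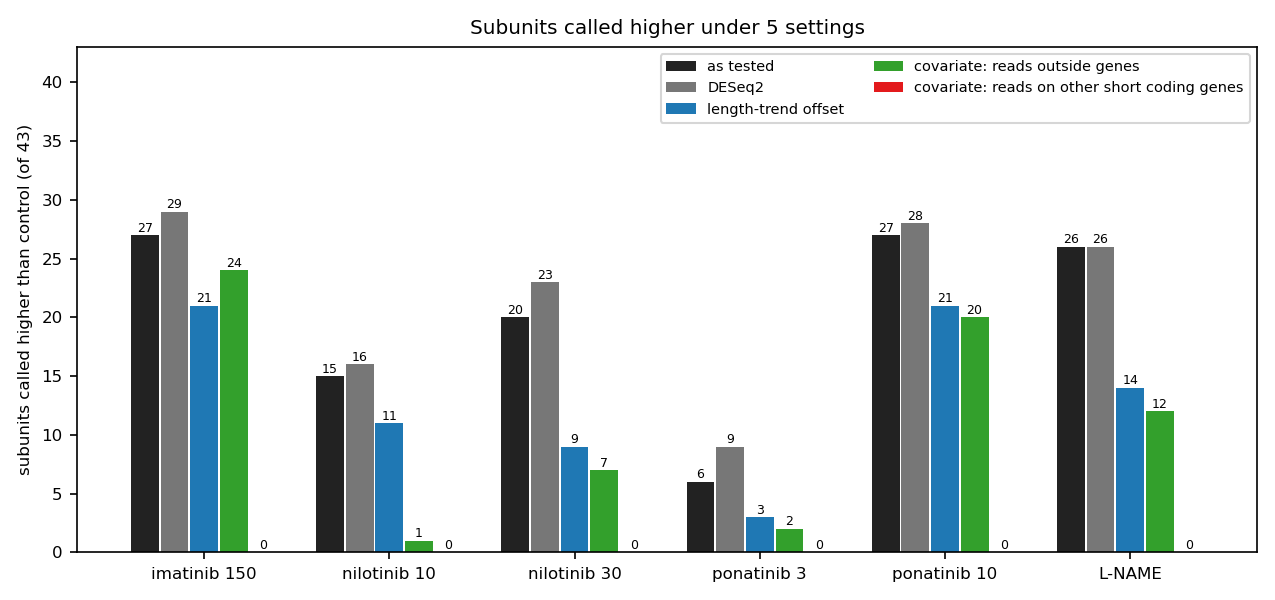
Number of the 43 members called higher than control (p under 0.01) in the 6 comparisons under 5 settings: as tested, DESeq2, the length-trend offset, and each of the 2 covariates. The counts lie between 6 and 27 in the fit reported here, between 3 and 21 with the length-trend offset, and at 0 with the share of reads on other short coding genes as a covariate.

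Members differed between the ponatinib doses. Between 10 and 3 mg/kg, 17 of the 43 members were higher at the higher dose and 2 were lower, while 3.13% of all tested genes were higher and 2.65% lower. At an adjusted p under 0.05, 8 were higher against 0.971% of all genes: Uqcr11 (0.79 ± 0.17, adjusted p = 0.0120), Uqcrh (0.67 ± 0.14, 0.00878), Cox5b, Cox6a1, Cox6c, Cox7a2, Atp5e and Atp5j2, with fold changes down to 0.45. Sdha was lower by -0.43 ± 0.11 (adjusted p = 0.0303) and Atp5b by -0.29 ± 0.08 (0.0727). The short-gene share was 4.86% at the lower dose against 6.37% at the higher. With that share as a covariate 0 members were called higher and 1 was called lower, while 3.86% of all genes were called in either direction.

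The nilotinib doses did not separate. Between 30 and 10 mg/kg no member was called by edgeR's quasi-likelihood test (1.32% of all genes were called in either direction), 2 had an unadjusted p under 0.05, and DESeq2 and limma voom called none either. The median fold change was 0.07, with intervals such as -0.11 to 0.57 for Uqcr11 and -0.15 to 0.33 for Cox6a1. A difference of that size was therefore within what the spread allowed.

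The 3 inhibitors share the BCR-ABL1 kinase as a target. Nilotinib was derived from imatinib and keeps its core with a different end group, while ponatinib carries an alkyne linker. A single pair shared a dose and schedule, ponatinib and nilotinib at 10 mg/kg once daily, and that pair was tested after the data were seen. Equal dose was not equal exposure: the paper reports a higher calculated plasma exposure for nilotinib than for ponatinib at this dose. It describes exposures similar to those of patients for nilotinib 10 mg/kg and for ponatinib at its lower dose. Of the 43 members 10 were higher with ponatinib and none lower (3.67% of all genes higher), 2 of them at an adjusted p under 0.05, Atp5g1 and Uqcr11. Atp5g1 ran from 25.9 to 47.4 CPM (median 39.9) with ponatinib and from 15.8 to 33.6 CPM (median 21.4) with nilotinib, a fold change of 0.70 ± 0.18 (adjusted p = 0.0208). For Uqcr11 it was 0.65 ± 0.17 (adjusted p = 0.0251), and the groups overlapped for both genes.

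The same pair differed by 0.02 for Sdha (95% interval -0.20 to 0.24) and by -0.01 for Atp5b (-0.18 to 0.16), so neither was called. With the length-trend offset 4 members were called between these groups (6.34% of all genes in either direction), and with the short-gene share as a covariate 1 (5.58%).

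For the other pairs of inhibitors the doses differ and the values stand side by side. Set against nilotinib 30 mg/kg, ponatinib 10 mg/kg had a higher mean of 40 of the 43 members. The unadjusted cut-off called 1 of them, Atp5h (0.45 ± 0.16, adjusted p = 0.153), while 2.78% of all genes were higher. There 10 had an unadjusted p under 0.05. DESeq2 called 4 (6.4% of all genes in either direction) and limma voom 11 (10%). Between imatinib and nilotinib 30 mg/kg no member was called by edgeR (7.55% of all genes were), and 5 members had an unadjusted p under 0.05. DESeq2 called none (8.45% of all genes) and limma voom 2 (11.1%). The interval for Cox6a1 in this pair was 0.02 to 0.49. Between ponatinib 10 mg/kg and imatinib none was called (4.09% of all genes were, 2 members had an unadjusted p under 0.05, and DESeq2 and limma voom called none), with intervals of -0.12 to 0.55 for Uqcr11 and -0.26 to 0.22 for Cox6a1.

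At the lower doses, ponatinib 3 mg/kg had higher levels than nilotinib 10 mg/kg of 3 members, all with long mRNAs. These were Sdha (0.45 ± 0.11, adjusted p = 0.0238, with no overlap between the groups), Atp5a1 (0.33 ± 0.09, 0.0534) and Atp5b (0.28 ± 0.08, 0.0754), while 3.18% of all genes were higher. Against L-NAME, imatinib had higher Sdha (0.31 ± 0.11, adjusted p = 0.114) and Atp5b (0.27 ± 0.08, adjusted p = 0.0719) at the unadjusted cut-off, while 2.93% of all genes were higher. Neither nilotinib 30 mg/kg nor ponatinib 10 mg/kg had a member called against L-NAME by edgeR (1.61% and 2.72% of all genes were, and 0 and 1 members had an unadjusted p under 0.05), and DESeq2 and limma voom called none in either. These comparisons do not show that the groups were alike, as the median half-width of their intervals was 0.28.

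Single mice stood apart from their groups. Mouse 4 of the ponatinib 10 mg/kg group was the lowest of its group in 31 of the 43 members, with a short-gene share of 4.09%, inside the control range. Without it 27 members were called higher and 2 lower, and the median fold change was 0.76. Control mouse 1 was the lowest control in 24 members and control mouse 3 the highest in 27, so that leaving them out gave 25 and 31 called members with imatinib and 18 and 25 with nilotinib 30 mg/kg.

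The partners of these complexes gave a mixed picture. Of the 5 tested subunits encoded by mitochondrial DNA none was called in any comparison with control. mt-Co1 and mt-Cytb, the catalytic subunit of complex IV and cytochrome b of complex III, ran from 8723 to 20844 and from 8840 to 20868 CPM over the 56 mice, with fold changes from -0.16 to 0.35 and from 0.02 to 0.26. The smallest unadjusted p in edgeR's test was 0.0129 for mt-Co1 with imatinib, followed by mt-Cytb with nilotinib 30 mg/kg (0.0321) and ponatinib 10 mg/kg (0.0415). mt-Co2, mt-Co3 and mt-Atp6 were counted at no more than 8.56 CPM and mt-Atp8 had no read, so these genes could not be followed.

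Assembly factors of complex IV rose and fell. Of 24 tested, 4 were higher and 2 lower with imatinib, 6 and 2 with ponatinib 10 mg/kg and 5 and 4 with L-NAME. Of all tested genes, 6.85% were higher and 6.06% lower with imatinib, 8.19% and 6.85% with ponatinib 10 mg/kg, and 6.66% and 7.29% with L-NAME. The lists here and below were not counted in the fits with the length-trend offset or a covariate. Cox14 (0.59 with imatinib, 0.77 with ponatinib 10 mg/kg), needed to make the Cox1 subunit, and Cox17 (0.66 and 0.81), the copper chaperone, were higher. Taco1 (-0.69 and -0.78), a translational activator of Cox1, was lower, and so with L-NAME were Cox15 (-0.61), which makes heme A, and Lrpprc (-0.60), which stabilises mitochondrial mRNAs. Of 7 assembly factors of complex III, Uqcc3 was higher with imatinib (0.97) and ponatinib 10 mg/kg (1.03), and of 4 of complex II, Sdhaf1 was higher by 0.65 with imatinib and 0.72 with ponatinib 10 mg/kg. Of 5 of complex V, 1 was higher with ponatinib 10 mg/kg (Fmc1) and none in the other comparisons.

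Among the electron carriers, Etfb, which feeds electrons from fatty acid oxidation into the chain, rose by 0.84 with imatinib and 0.70 with ponatinib 10 mg/kg, and cytochrome c (Cycs) by 1.36 with imatinib. The dehydrogenase that accepts those electrons, Etfdh, fell by 0.47 with ponatinib 10 mg/kg on the log2 scale. Ndufa4, now counted as a complex IV subunit though outside the symbol rule, rose by 0.65 with imatinib and 0.66 with ponatinib 10 mg/kg. Of these 11 genes, 5 were higher and none lower with imatinib (6.85% and 6.06% of all genes), and 4 were higher and 1 lower with ponatinib 10 mg/kg (8.19% and 6.85%).

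Few enzymes of the citric acid cycle, which shares complex II with the respiratory chain, were called higher. Of 14 enzymes, 2 were higher and 2 lower with imatinib (6.85% and 6.06% of all genes). None was higher and 3 were lower with ponatinib 10 mg/kg (8.19% and 6.85%), and none was higher and 4 were lower with L-NAME (6.66% and 7.29%). What part mRNA length has in these counts was not tested. Ogdh, the first subunit of the 2-oxoglutarate dehydrogenase complex, was lower in 5 of the 6 comparisons, by -0.35 with imatinib and -0.59 with L-NAME (adjusted p = 5.9e-05), and Dld, another subunit of it, by -0.48 with L-NAME. Suclg1, which makes succinate, was higher with imatinib (0.47).

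Of 13 tested regulators of respiratory genes, single calls are given here without a count for the list. Of all genes, 6.06% were lower with imatinib, 5.24% with nilotinib 30 mg/kg, 6.85% with ponatinib 10 mg/kg and 7.29% with L-NAME. With ponatinib 10 mg/kg 8.19% were higher. Ppara, the fatty acid receptor, was lower with nilotinib 30 mg/kg (-1.61, adjusted p = 0.000262), L-NAME (-0.89), imatinib (-0.80) and ponatinib 10 mg/kg (-0.74). Gabpa, whose motif stands in several promoters above, was lower with nilotinib 30 mg/kg (-0.50) and ponatinib 10 mg/kg (-0.41), and Esrra was higher with ponatinib 10 mg/kg (0.58). Of 12 import and chaperone genes, 3 were higher and 1 lower with imatinib (6.85% and 6.06% of all genes) and 2 and 1 with ponatinib 10 mg/kg (8.19% and 6.85%). Hspa9, the matrix chaperone of import, fell in 4 comparisons by up to 0.42.

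Lists of other genes with mostly short mRNAs held many higher genes too. The short ones in these lists were also part of the other short coding genes counted above. Of 46 complex I subunit genes (a list by symbol that also holds a few assembly factors), 29 were higher with imatinib, 7 with nilotinib 10 mg/kg, 20 with nilotinib 30 mg/kg, 3 with ponatinib 3 mg/kg, 29 with ponatinib 10 mg/kg and 25 with L-NAME, with a median of 0.62 for ponatinib 10 mg/kg. Of 92 genes named Rpl or Rps, mostly cytosolic ribosomal proteins with some S6 kinases, 36, 27, 31, 1, 38 and 36 were higher in the same order. Of all tested genes, 6.85%, 2.32%, 4.11%, 1.4%, 8.19% and 6.66% were higher.

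Markers of other liver cells also moved with some groups. Of 12 Kupffer cell and macrophage markers 5 were lower with imatinib, and of 12 stellate cell and fibroblast markers 5 were lower with imatinib, 5 with ponatinib 3 mg/kg and 4 with ponatinib 10 mg/kg. Of all genes, 6.06%, 1.74% and 6.85% were lower in these 3 groups. Of 6 erythroid markers 3 were higher with nilotinib 30 mg/kg, 4 with ponatinib 3 mg/kg and 4 with ponatinib 10 mg/kg. Of all genes, 4.11%, 1.4% and 8.19% were higher in that order. The part of the cell markers in the members' values was not tested.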

How the data were processed

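Livers of 56 mice, 8 per group, were profiled by poly(A) RNA sequencing. The deposited files hold raw read counts per gene, 1 file per mouse, made by the authors with TopHat2 2.0.14, Bowtie2 2.1.0, SAMtools 0.1.18 and HTSeq 0.6.1p1 on GRCm38 and listing 45513 Ensembl gene IDs. Alignments to several places were left out of the counts, and the strand setting is not given in the sources used here. Symbols and mRNA lengths came from GENCODE vM21, which matched 44585 IDs. Summary lines (reads outside genes, ambiguous, not unique) stayed out of totals and tests.

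Genes passing edgeR's filterByExpr were fitted with TMM factors and the quasi-likelihood test (edgeR 4.0.16, R 4.3.3), with 1 mean per group over all mice, and p-values were adjusted over all 14314 genes tested. Alternatives were DESeq2 1.42.0, limma 3.58.1 voom with sample weights, other scaling, no filter, subsets of mice, covariates and a length-trend offset. The scripts were tested on simulated data. Permutation tests (scipy 1.17.1) were two-sided and enumerated all 12870 regroupings of 8 against 8. The totals per library limit precision: a count of 0 in a mouse is compatible with up to 3 reads, and floors of this kind cover counting error only.

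The members and lists were chosen with earlier results of these data known. Named genes followed a rule: all complex II members, core and isoform subunits, the 2 smallest p-values per complex with imatinib, nilotinib 30 mg/kg and ponatinib 10 mg/kg, members called lower, and the largest p per complex with ponatinib 10 mg/kg. Other genes were named after their values were seen. Replicate numbers follow the order of deposition and pair no mice. No 2 libraries of the same group held the same counts, and libraries of different groups were not compared in this way. Promoter letters came from RefSeq on GRCm38.p6.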

Additional observations from a re-analysis of the deposited data

Results flagged for a closer look

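Within groups of 8 mice, 13 of the 252 sets of member levels tested had 1 mouse far from the other 7 by Dixon's test, which chance gives in about 1 set in 20. Values are log2 CPM. Control mouse 3 was the highest control for Sdhc (7.79), Cox5a (7.33), Cox6b1 (7.00) and Uqcr11 (6.33), and control mouse 1 was the lowest for Atp5s (1.94). Mouse 4 of the ponatinib 10 mg/kg group was the lowest for Cox5b (4.15) and for Atp5s (0.367). Nilotinib 10 mg/kg mouse 8 was the highest for Uqcrc1 (8.59) and nilotinib 30 mg/kg mouse 6 for Atp5a1 (10.2). L-NAME mouse 3 was the lowest for Cox7a2 (6.32) and L-NAME mouse 8 the highest for Atp5j2 (7.49). Imatinib mouse 6 was the lowest for Cox7a1 (-2.31), and ponatinib 3 mg/kg mouse 2 the highest for Cox6b2 (1.05), both genes of few reads.

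The difference between the ponatinib doses passed an adjusted p of 0.05 in edgeR for 9 members, as log2 fold change at 10 against 3 mg/kg. Sdha was lower, at -0.43 (adjusted p = 0.0303). The others were higher: Uqcr11 by 0.79 (0.0120), Cox5b by 0.69 (0.0285), Uqcrh by 0.67 (0.00878), Atp5e by 0.62 (0.0300), Cox7a2 by 0.61 (0.0161), Cox6c by 0.58 (0.0394), Atp5j2 by 0.54 (0.0491) and Cox6a1 by 0.45 (0.0394). Both doses were set against the same 8 control mice above, and this contrast uses none of them.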

How the results depend on the processing

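Counts here are members called, higher and lower together. With the share of reads on other short coding genes as a covariate, 0 were called in each of the 6 comparisons with control. In the same fit 1 was called between the ponatinib doses, as lower at the higher dose (3.86% of all genes), and 7 between ponatinib 3 and nilotinib 10 mg/kg (6%). With the percentage of reads outside genes as a covariate the counts were 2 for nilotinib 10 mg/kg, 8 for nilotinib 30 mg/kg, 2 for ponatinib 3 mg/kg and 13 for L-NAME against control, 5 between the ponatinib doses and 1 for imatinib against L-NAME. Of all genes, 3.3%, 4.49%, 2.86%, 6.19%, 2.23% and 6.25% were called there in that order. With the length-trend offset the counts were 11 for nilotinib 30 mg/kg, 3 for ponatinib 3 mg/kg, 17 for L-NAME, 9 between the ponatinib doses, 2 for ponatinib 10 against nilotinib 30 mg/kg and 5 for ponatinib 3 against nilotinib 10 mg/kg. Of all genes, 6.52%, 2.54%, 9.8%, 4.44%, 6.15% and 5.66% were called with it in that order. At an adjusted p under 0.05 the members called were 2 for nilotinib 10 mg/kg, 0 for ponatinib 3 mg/kg, 9 between the ponatinib doses, 1 for ponatinib 3 against nilotinib 10 mg/kg, and 0 for ponatinib 10 against nilotinib 30 mg/kg and for imatinib against L-NAME. limma voom called 22 for ponatinib 3 mg/kg, 11 for ponatinib 10 against nilotinib 30 mg/kg, 2 for imatinib against nilotinib 30 mg/kg and 1 for imatinib against L-NAME. Of all genes it called 9.08%, 10%, 11.1% and 9.33% in that order. DESeq2 called 4 for ponatinib 10 against nilotinib 30 mg/kg, and 6.4% of all genes. A fit of the 16 mice compared called 10 for ponatinib 3 mg/kg and 0 for ponatinib 10 against nilotinib 30 mg/kg and for imatinib against L-NAME. For ponatinib 10 against nilotinib 30 mg/kg, upper-quartile factors and the 48 mice without the L-NAME group gave 0, and for nilotinib 30 against 10 mg/kg no filter on low counts gave 1. Without L-NAME mouse 2 the counts were 2 for ponatinib 10 against nilotinib 30 mg/kg and 0 for imatinib against L-NAME. The cause of these shifts was not tested. Leaving out 1 mouse at a time gave 25 to 31 called members for imatinib, 18 to 25 for nilotinib 30 mg/kg and 27 to 29 for ponatinib 10 mg/kg.

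Of 1997 refits of the 31 named genes against control, 7 reversed a called direction, all with the short-gene share as a covariate. These were Atp5d at -0.042 with nilotinib 30 mg/kg, -0.10 with ponatinib 10 mg/kg and -0.13 with L-NAME, Cox8a at -0.15 with ponatinib 10 mg/kg and -0.12 with L-NAME, and Atp5g3 at -0.038 with nilotinib 30 mg/kg and -0.000698 with L-NAME. In 150 refits a call was lost and in 70 one was gained. Size factors of the DESeq2 kind in edgeR left each of the 16 counts within 1.5 times, and the complex means moved by less than the spread between mice with prior counts of 0.5 and 5. The differences in Atp5g1 share from control kept their direction and their side of the threshold as shares of counts, while the share itself was 5.85% in place of 2.69% in control livers. For ponatinib against nilotinib at 10 mg/kg, a comparison added after seeing the data, 10 members were called. That number was 4 in the 16 mice compared (3.98% of all genes), with the percentage of reads outside genes as a covariate (5.51%) and with the length-trend offset (6.34%). It was 2 at an adjusted p under 0.05 and 1 with the short-gene covariate (5.58% of all genes). The length offset, the short-gene covariate and the fit without L-NAME mouse 2 were chosen after seeing the data. No paired analysis was possible because the labels give the mice no replicate numbers that the groups share.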
